A study of Mus musculus with 12 samples.

Results

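The Zic and Gli genes encode zinc finger transcription factors of the C2H2 type, and 7 of them were followed here: Zic1, Zic2, Zic4, Zic5, Gli1, Gli2 and Gli3. They were found by symbol in the deposited promoter count tables, where each has 1 window of 2 kb centred on an annotated start site. This gave 7 of 55385 windows. The tissue was forebrain of untreated C57BL/6 mouse embryos at E12.5 (embryonic day), either wild type or of the genotype labelled EedcKO. Eed chromatin was obtained by X-ChIP, an immunoprecipitation of cross-linked chromatin, with input as its control. H3K27me3, H3K27ac and RNA-Pol2 were profiled by CUT&Tag, where a transposase held at the antibody cuts nearby DNA, with IgG as the control. Each genotype and target had a single library, so a difference below is between 2 libraries, without replicates or p-values. The sources used here do not state which part of Eed was deleted, what drove the deletion, how many embryos made a library or how many cells kept Eed.

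Eed is a subunit of Polycomb repressive complex 2, which writes H3K27me3, the histone mark of Polycomb repression. H3K27ac is found at active regulatory DNA, and RNA polymerase II (RNA-Pol2) at genes being transcribed. Gli proteins are the transcription factors of the hedgehog pathway: Gli2 acts mainly as its activator, Gli3 in its processed form mainly as its repressor, and Gli1 is an activator whose own transcription is a common readout of the pathway. In the forebrain, Gli3 is needed for the dorsal telencephalon and opposes ventral hedgehog signalling. Zic genes are close relatives of the Gli genes, are expressed in the dorsal neural tube and midline, and lie in the genome as pairs, Zic1 with Zic4 and Zic2 with Zic5. Loss of Zic2 function causes holoprosencephaly in mouse and human, and Zic1 and Zic4 act together in growth of the cerebellum.

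Total promoter counts ran from 948955 to 3842779 over the 12 libraries, and the median window held 11 to 38 counts. Labels were checked before any comparison. Over 55385 windows, Pearson's r of log2 RPKM (counts per kb, scaled to the library's promoter total) between wild type H3K27me3 and the library labelled EedcKO H3K27ac was 0.936, and wild type H3K27ac was farther from that library (r = 0.680). For the library labelled EedcKO H3K27me3, r was 0.736 to wild type H3K27me3, 0.867 to H3K27ac and 0.931 to RNA-Pol2. Its r to EedcKO IgG was 0.871. For the library labelled EedcKO RNA-Pol2, r was 0.890 to wild type RNA-Pol2 and 0.901 to H3K27ac. EedcKO Eed had an r of 0.644 to wild type Eed, 0.835 to wild type H3K27ac, 0.830 to wild type RNA-Pol2 and 0.793 to EedcKO IgG. These windows share base composition and mappability, so the values are descriptions only. At 39 Hox promoters, genes that pattern the body axis behind the forebrain, the median H3K27me3 count was 1384 in wild type and the median H3K27ac count was 18, whereas at 10 forebrain identity promoters they were 594 and 58. At these forebrain promoters the library labelled EedcKO H3K27ac had a median of 775 and the library labelled EedcKO H3K27me3 of 40. At the Hox promoters their medians were 1804 and 23. At 20 housekeeping promoters their medians were 42.5 and 52, beside 42.5 in wild type H3K27me3 and 69.5 in wild type H3K27ac. Markers of other cells had up to 40 (6 erythroid), 67 (5 endothelial) and 57 (5 microglial) H3K27ac counts in wild type. In wild type H3K27me3 they reached 24, 856 and 92 counts, and in the library labelled EedcKO H3K27ac 18, 1278 and 59. As labelled, 2 of 5 endothelial markers were at least 2-fold lower in EedcKO H3K27me3, and in H3K27ac 2 were higher and 1 lower. In H3K27me3, 1 of 6 erythroid markers was lower and 1 higher, and 1 of 5 microglial markers was lower. No erythroid (5 of 6 tested) or microglial marker passed 2-fold in H3K27ac. Over all tested promoters 13.0% were lower and 6.81% higher in H3K27me3, and 11.7% lower and 18.2% higher in H3K27ac. These calls are relative to the median tested promoter. By library totals alone, 4 erythroid and 1 microglial marker were lower in H3K27ac and none higher, beside 51.6% and 7.9% of all tested promoters. In H3K27me3, 2 erythroid and 1 microglial marker were then higher and none lower, beside 41.0% and 6.45%. The part of these cells in the results was not tested. Histone comparisons between genotypes are therefore given under the deposited label and with the other EedcKO histone library in its place.

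The windows of paired genes did not overlap in the deposited tables. Zic4 (chromosome 9, 91361413 to 91363412, plus strand) and Zic1 (91364810 to 91366809, minus strand) were 1397 bp apart, and their transcripts run towards each other from these start sites. Zic5 (chromosome 14, 122464677 to 122466676, minus strand) and Zic2 (122474435 to 122476434, plus strand) were 7758 bp apart and divergent. The Gli windows stood alone: Gli1 on chromosome 10 (127340974 to 127342973, minus strand), Gli2 on chromosome 1 (119052619 to 119054618, minus strand) and Gli3 on chromosome 13 (15462235 to 15464234, plus strand). The windows of other annotated transcripts overlapped 2 members. That of 2610035F20Rik, on the opposite strand, shared 1764 bp with Zic2, and that of Gm6556, on the opposite strand, shared 1499 bp with Gli3, which also shared 60 bp with Gm26645. Reads in the shared stretches were counted for both and cannot be assigned to 1 of them. Coordinates are those of mm10.

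RefSeq promoters (build GRCm38.p6, the assembly of mm10; 250 bp before to 50 bp after a start site) were matched by symbol for 5 members, and for 4 of them they lay inside the counted window. They are shown because Polycomb marks in mammals lie mostly at CpG-rich promoters. Sequences are written 5′ to 3′ on the gene's strand, and capitals mark CpG dinucleotides.
Zic1 (chr9:91365719-91366018, minus strand): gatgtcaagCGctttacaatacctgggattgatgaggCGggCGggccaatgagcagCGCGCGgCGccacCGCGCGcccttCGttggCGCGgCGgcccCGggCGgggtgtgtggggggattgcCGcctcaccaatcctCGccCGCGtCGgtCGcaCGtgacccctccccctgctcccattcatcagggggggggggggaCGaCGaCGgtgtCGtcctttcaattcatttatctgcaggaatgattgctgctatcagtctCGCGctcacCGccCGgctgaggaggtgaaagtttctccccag
Zic5 (chr14:122465609-122465908, minus strand): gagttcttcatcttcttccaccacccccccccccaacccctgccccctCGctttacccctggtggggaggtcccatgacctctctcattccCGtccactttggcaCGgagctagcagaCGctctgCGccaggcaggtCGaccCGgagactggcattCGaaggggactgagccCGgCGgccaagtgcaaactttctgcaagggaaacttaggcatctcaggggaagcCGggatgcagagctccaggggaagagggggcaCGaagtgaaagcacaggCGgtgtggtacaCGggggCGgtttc
Gli2 (chr1:119053570-119053869, minus strand): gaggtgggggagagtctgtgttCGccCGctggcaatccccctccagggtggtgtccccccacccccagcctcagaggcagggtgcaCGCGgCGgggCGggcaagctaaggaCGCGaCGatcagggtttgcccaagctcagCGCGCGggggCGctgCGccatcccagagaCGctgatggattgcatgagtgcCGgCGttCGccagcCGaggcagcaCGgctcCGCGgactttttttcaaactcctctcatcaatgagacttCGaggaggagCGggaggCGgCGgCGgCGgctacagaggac
Gli3 (chr13:15463473-15463772, plus strand): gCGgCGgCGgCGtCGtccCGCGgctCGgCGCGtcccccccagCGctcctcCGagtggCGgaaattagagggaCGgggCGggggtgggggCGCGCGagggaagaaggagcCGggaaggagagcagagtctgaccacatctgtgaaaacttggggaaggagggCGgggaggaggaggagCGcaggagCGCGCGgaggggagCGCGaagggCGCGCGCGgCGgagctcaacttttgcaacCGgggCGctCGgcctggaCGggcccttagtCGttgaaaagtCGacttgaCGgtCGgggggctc

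The CpG count was 39 for Gli3, 31 for Zic1, 28 for Gli2 and 15 for Zic5, beside a median of 7 over 32851 RefSeq promoters. As many CpGs or more were found in 4.45%, 10.6%, 14.2% and 34.6% of all promoters. The order of the CpG counts was not the order of H3K27me3 given below, in which Zic5 lay above Zic1 and Gli3 was lowest. The RefSeq promoter of Zic4 (91368722 to 91369021) lay outside the counted window, which follows another annotated start, and its 300 bp held 8 CpGs. The counted Zic4 window lay inside the RefSeq Zic1 gene (chromosome 9, 91358058 to 91365768). Values given for Zic4 below therefore describe a stretch within Zic1 and not the RefSeq Zic4 promoter. The Gli consensus GACCACCCA, searched on both strands, was in none of the 4 promoters inside windows and in 0.253% of all promoters. Its core CCACCC, which overlaps the consensus, was in those of Zic5, Gli2 and Gli3 and in 31.5% of all promoters. These matches describe letters in 300 bp and not binding.

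All 7 promoters carried H3K27me3 above IgG in the wild type forebrain, and the Zic promoters carried more than the Gli promoters. Wild type H3K27me3 counts were 926 at Zic2, 643 at Zic5, 616 at Zic4 and 496 at Zic1. They were 294 at Gli1, 235 at Gli2 and 162 at Gli3, so the Zic and Gli counts did not overlap. IgG counts at the same windows ran from 9 to 33, and the median of all windows was 26 H3K27me3 counts. Since all members have windows of the same length, counts can be compared within a library. In this order only Zic5 and Zic4 did not differ beyond counting error (ratio 1.04, 95% interval 0.933 to 1.17). Zic1 had 1.69 times the count of Gli1 (interval 1.46 to 1.96). Of all windows, 99.04% had fewer H3K27me3 counts than Zic2 and 94.76% fewer than Gli3. Ratios are given on the log2 scale relative to the median tested promoter, and a size of at least 1, which is 2-fold, was called. Relative to IgG all 7 members were called higher, as were 19.1% of the tested promoters, from 2.63 at Gli3 (interval 2.05 to 3.39) to 5.69 at Zic2 (interval 5.09 to 6.66). The 39 Hox promoters held at least 883 counts each, a range that among the members only Zic2 reached. In bulk tissue a mark carried by fewer cells and a weaker mark in each cell cannot be told apart.

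Eed in wild type was above input at all members, with another order. Counts were 303 at Zic2, 242 at Gli3, 160 at Zic1, 157 at Zic5, 155 at Gli2, 104 at Gli1 and 55 at Zic4. Input held 16 to 33 counts at these windows. Zic1, Zic5 and Gli2 did not differ beyond counting error, and the other neighbours in this order did. Zic2 ranked 118 and Gli3 593 among all windows, while Gli3 had the lowest H3K27me3 of the members. Zic4 went the other way: its 616 H3K27me3 counts stood beside an Eed level of 13.9 RPKM, against 13.7 RPKM in input. Relative to input all 7 were called higher (28.4% of tested promoters), from 1.34 at Zic4 (interval 0.66 to 2.05) to 3.81 at Zic2 (interval 3.28 to 4.48). For Zic4 the call came from the shift of the median promoter, whose own log2 ratio of Eed to input was -1.32.

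Marks of activity were low to moderate in wild type. H3K27ac counts were 84 at Gli2, 83 at Zic2, 67 at Zic5, 65 at Gli3, 56 at Zic1, 49 at Gli1 and 36 at Zic4, and no neighbours in this order differed beyond counting error. Relative to IgG, 5 members were called higher (23.3% of tested promoters), with Zic4 at 0.90 and Gli1 at 0.50 below the size rule. By library totals Gli3 (0.99) was not called either. Zic1 had the highest value, 2.41 (interval 1.54 to 3.77), on an IgG count of 9. The lowest RNA-Pol2 count was 30 at Zic1, and the other 6 members had 56 to 71 counts without a difference between neighbours beyond counting error. Of the 7 members 4 were called higher than IgG (15.3% of tested promoters), with values up to 1.56 at Zic2 (interval 0.83 to 2.56). Gli1 had the lowest ratio to IgG for both H3K27ac and RNA-Pol2, with IgG counts of 33, the highest of the members.

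**Figure D1:**
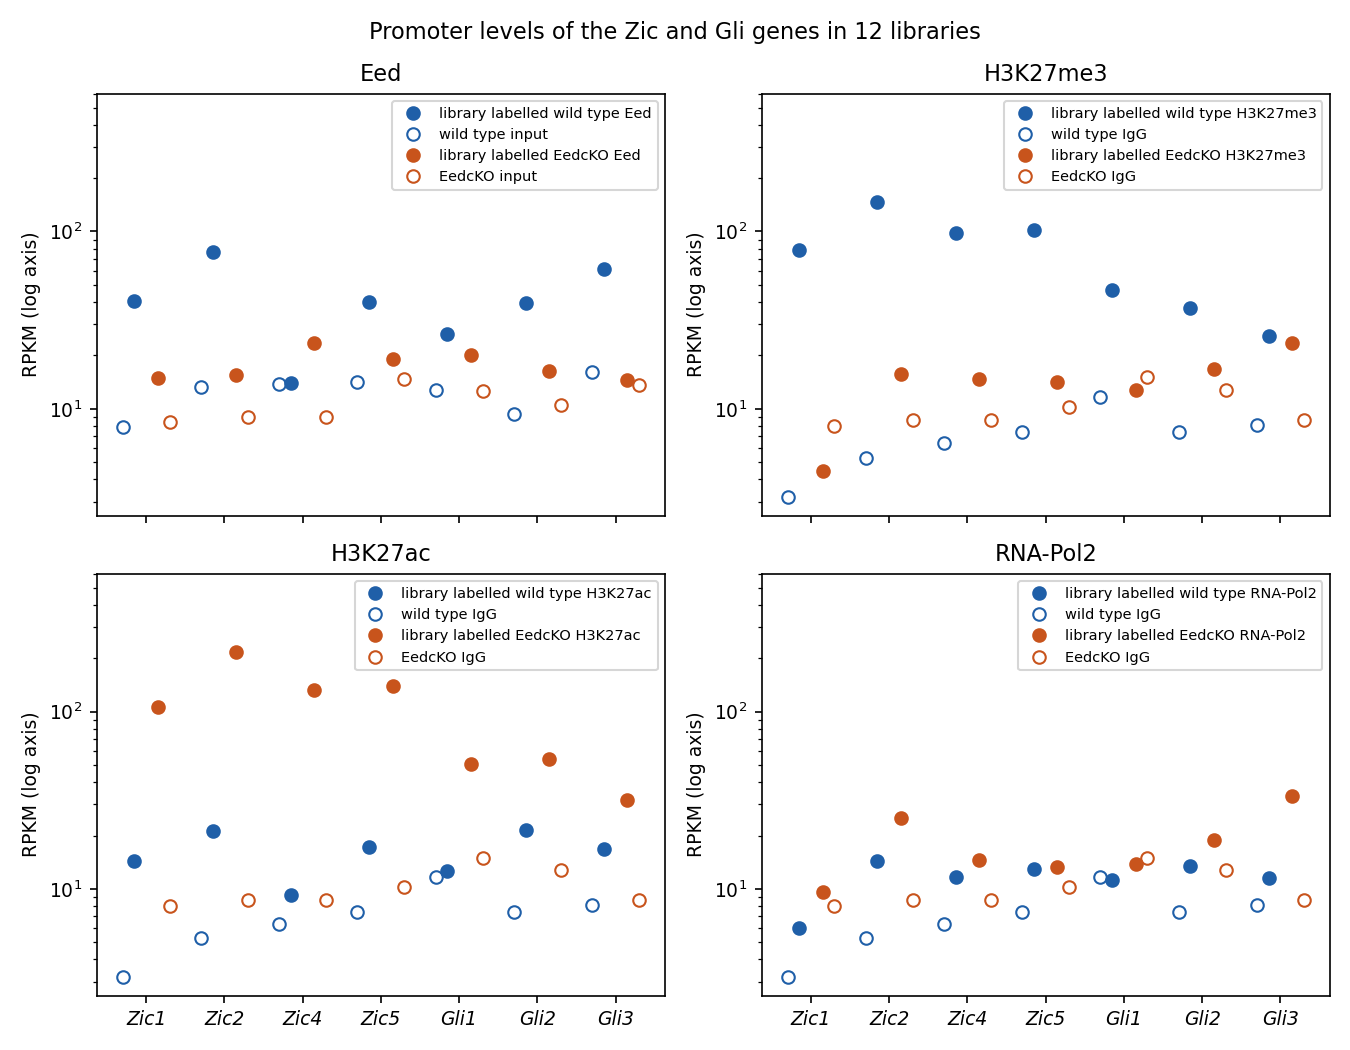
RPKM (log axis) at the 7 promoters in the 12 libraries, 1 panel for each target. Filled points are the antibody libraries as labelled, open points their controls, blue wild type and orange EedcKO. Wild type H3K27me3 runs from 25.6 RPKM at Gli3 to 146 RPKM at Zic2, and the library labelled EedcKO H3K27ac from 31.7 to 217 RPKM at the same genes.

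**Figure D2:**
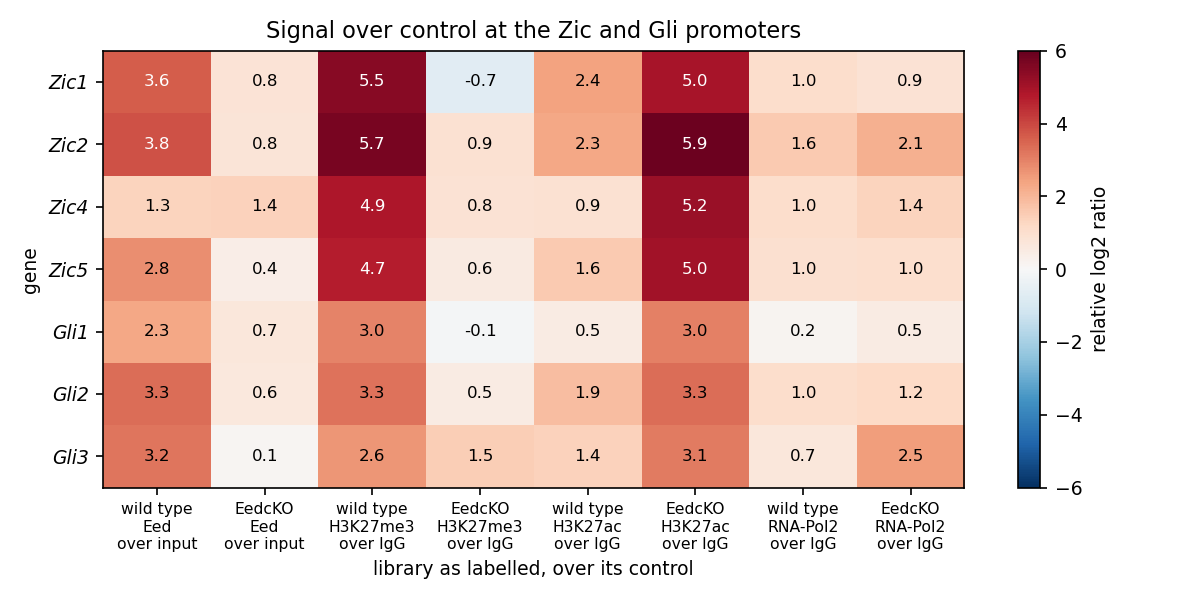
Relative log2 ratio of each antibody library to the control of its genotype, with genes in rows and libraries as labelled in columns. Both high columns are wild type H3K27me3 and the library labelled EedcKO H3K27ac, each highest at Zic2 (5.69 and 5.88).

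Between genotypes, Eed was lower in EedcKO at 6 of the 7 members and within 2-fold at Zic4. At Zic2, 303 counts became 45 (-3.15, interval -3.67 to -2.73), and Gli3 from 242 to 42 (-2.92, interval -3.47 to -2.48). Zic1 went from 160 to 43 (-2.30), Gli2 from 155 to 47 (-2.13), Zic5 from 157 to 55 (-1.93) and Gli1 from 104 to 58 (-1.27, interval -1.76 to -0.80). Among 50751 tested promoters 30.0% were lower and 22.6% higher, and the median of the members was -2.13. By library totals, without the shift of 0.88, these shares were 14.7% and 47.2%, and 5 members were lower, without Gli1. In the EedcKO library the members lay between 42 and 68 counts, and no neighbours in that order differed beyond counting error. Relative to EedcKO input 6 members were within 2-fold, from 0.10 at Gli3 to 0.81 at Zic1, and input itself was within 2-fold between genotypes at all 7 (2.5% of tested promoters lower, 3.33% higher).

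The counted window of Zic4, which lay inside the Zic1 gene, stood apart from the rest. It had 55 Eed counts in wild type and 68 in EedcKO (-0.15, interval -0.66 to 0.41). Its value was 0.73 by library totals and -0.84 with equal medians over all windows, so its sign depended on the scaling. The EedcKO count was the highest of the members and ranked 308 among all windows. Relative to EedcKO input it was 1.37 (interval 0.63 to 2.27), the only member called higher there (5.16% of tested promoters). The ratio of EedcKO to wild type at Zic4 was 4.58 times that at its neighbour Zic1 (exact interval 2.74 to 7.73), 2.21 times that at Gli1 (1.34 to 3.68) and 8.27 times that at Zic2 (5.04 to 13.7). These ratios of ratios do not depend on the scaling. Zic4 was singled out after its values were seen.

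As labelled, H3K27me3 was lower in EedcKO at 6 of 7 members. Zic1 went from 496 to 15 counts (-4.85, interval -5.84 to -4.26), Zic2 from 926 to 53 (-4.03), Zic5 from 643 to 48 (-3.65) and Zic4 from 616 to 50 (-3.53). Gli1 went from 294 to 43 (-2.68), Gli2 from 235 to 57 (-1.97) and Gli3 from 162 to 79 (-0.98, interval -1.39 to -0.59), just under the size rule. Among 50165 tested promoters 13.0% were lower and 6.81% higher, or 6.45% and 41.0% by library totals, where the same count of 6 members was lower. IgG held 25 to 47 counts at the members in EedcKO. In the library labelled EedcKO H3K27me3 Gli3 had the highest count and Zic1 the lowest, and of the neighbours in that order only Gli1 and Zic1 differed beyond counting error (ratio 2.87, interval 1.56 to 5.56). Gli3 was the only member called higher than EedcKO IgG there (1.49, interval 0.90 to 2.23; 7.78% of tested promoters). Zic1 lay below IgG (15 against 25 counts, -0.68, interval -1.77 to 0.24).

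When the library labelled EedcKO H3K27ac was set against wild type H3K27me3, the direction was opposite. That library held 1572 counts at Zic2, 1016 at Zic5, 963 at Zic4, 775 at Zic1, 392 at Gli2, 368 at Gli1 and 230 at Gli3. This is the wild type H3K27me3 order except for Gli1 and Gli2, which did not differ beyond counting error (ratio 1.07, interval 0.922 to 1.23). Relative to wild type H3K27me3 the 7 values lay between 0.41 at Gli1 (interval 0.19 to 0.64) and 0.85 at Zic2 (interval 0.74 to 0.97), and none passed the size rule. Relative to EedcKO IgG all 7 were called higher (14.5% of tested promoters), from 3.03 at Gli1 to 5.88 at Zic2. At least 2-fold higher than wild type H3K27me3 were 2.55% and lower 4.49% of 48424 tested promoters.

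Taken by their labels, all 7 members were higher in EedcKO H3K27ac, as were 18.2% of 47998 tested promoters, while 11.7% were lower. By library totals the shares were 7.9% and 51.6%, and 6 members were higher, without Gli3. Zic4 went from 36 to 963 counts (4.81), Zic2 from 83 to 1572 (4.35), Zic5 from 67 to 1016 (4.02) and Zic1 from 56 to 775 (3.88). Gli1 went from 49 to 368 (3.00), Gli2 from 84 to 392 (2.34) and Gli3 from 65 to 230 (1.94, interval 1.56 to 2.38). With the library labelled EedcKO H3K27me3 in its place, 6 members were within 2-fold of wild type H3K27ac, from -0.55 at Zic2 to 0.54 at Zic4. Zic1 was lower (56 against 15 counts, -1.71, interval -2.74 to -0.97; 6.18% of 50021 tested promoters were lower and 13.0% higher). Relative to EedcKO IgG, Gli3 alone was called higher in the library labelled EedcKO H3K27me3 (7.78% of tested promoters). Both pairings use the same pair of EedcKO libraries, and which label holds was not tested by an independent measurement.

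RNA-Pol2 was called higher at 3 of the 7 members in the library labelled EedcKO RNA-Pol2, and the other 4 were within 2-fold. Gli3 went from 57 to 256 counts (1.91, interval 1.53 to 2.39), Zic2 from 71 to 192 (1.20, interval 0.82 to 1.63) and Zic1 from 30 to 74 (1.04, interval 0.45 to 1.75). Gli2 (67 to 145, 0.88), Zic4 (58 to 112, 0.72), Gli1 (56 to 106, 0.69) and Zic5 (64 to 102, 0.45, interval -0.01 to 0.93) made up the rest. By this rule 12.2% of 50379 promoters were higher and 7.86% lower. Of 20 housekeeping promoters 9 were higher and 0 lower, with a median of 0.98, beside a median of 0.88 over the members. By library totals, without the shift of -0.41, 2.42% were higher and 21.1% lower, and Gli3 was the only member called. Relative to EedcKO IgG, Zic2, Zic4, Gli2 and Gli3 were called higher (23.4% of tested promoters), with the highest value, 2.52, at Gli3. By library totals Zic2 (1.48) and Gli3 (1.89) were still called there, and Zic4 and Gli2 were not. The change at Gli3 was 2.07 times that at Gli2 (interval 1.35 to 3.19) and 1.66 times that at Zic2 (1.10 to 2.52). Gli3 was chosen for this after its values were seen. The overlapping opposite-strand windows went from 69 to 286 counts (Gm6556, at Gli3) and from 72 to 192 (2610035F20Rik, at Zic2). The changes at Gli3 and Zic2 therefore cannot be assigned to 1 transcript. IgG was higher in EedcKO at Zic1 as well, with 9 and 25 counts (1.24, interval 0.22 to 2.65; 7.33% of tested promoters higher and 6.77% lower), and with IgG subtracted the RNA-Pol2 value of Zic1 was -0.65. Relative to wild type H3K27ac, to which this library was about as close as to wild type RNA-Pol2, Gli3 was again higher (1.16, interval 0.78 to 1.59; 8.93% of tested promoters) and the other 6 were within 2-fold. By library totals Gli3 was at 0.97 there and no member was called.

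**Figure D3:**
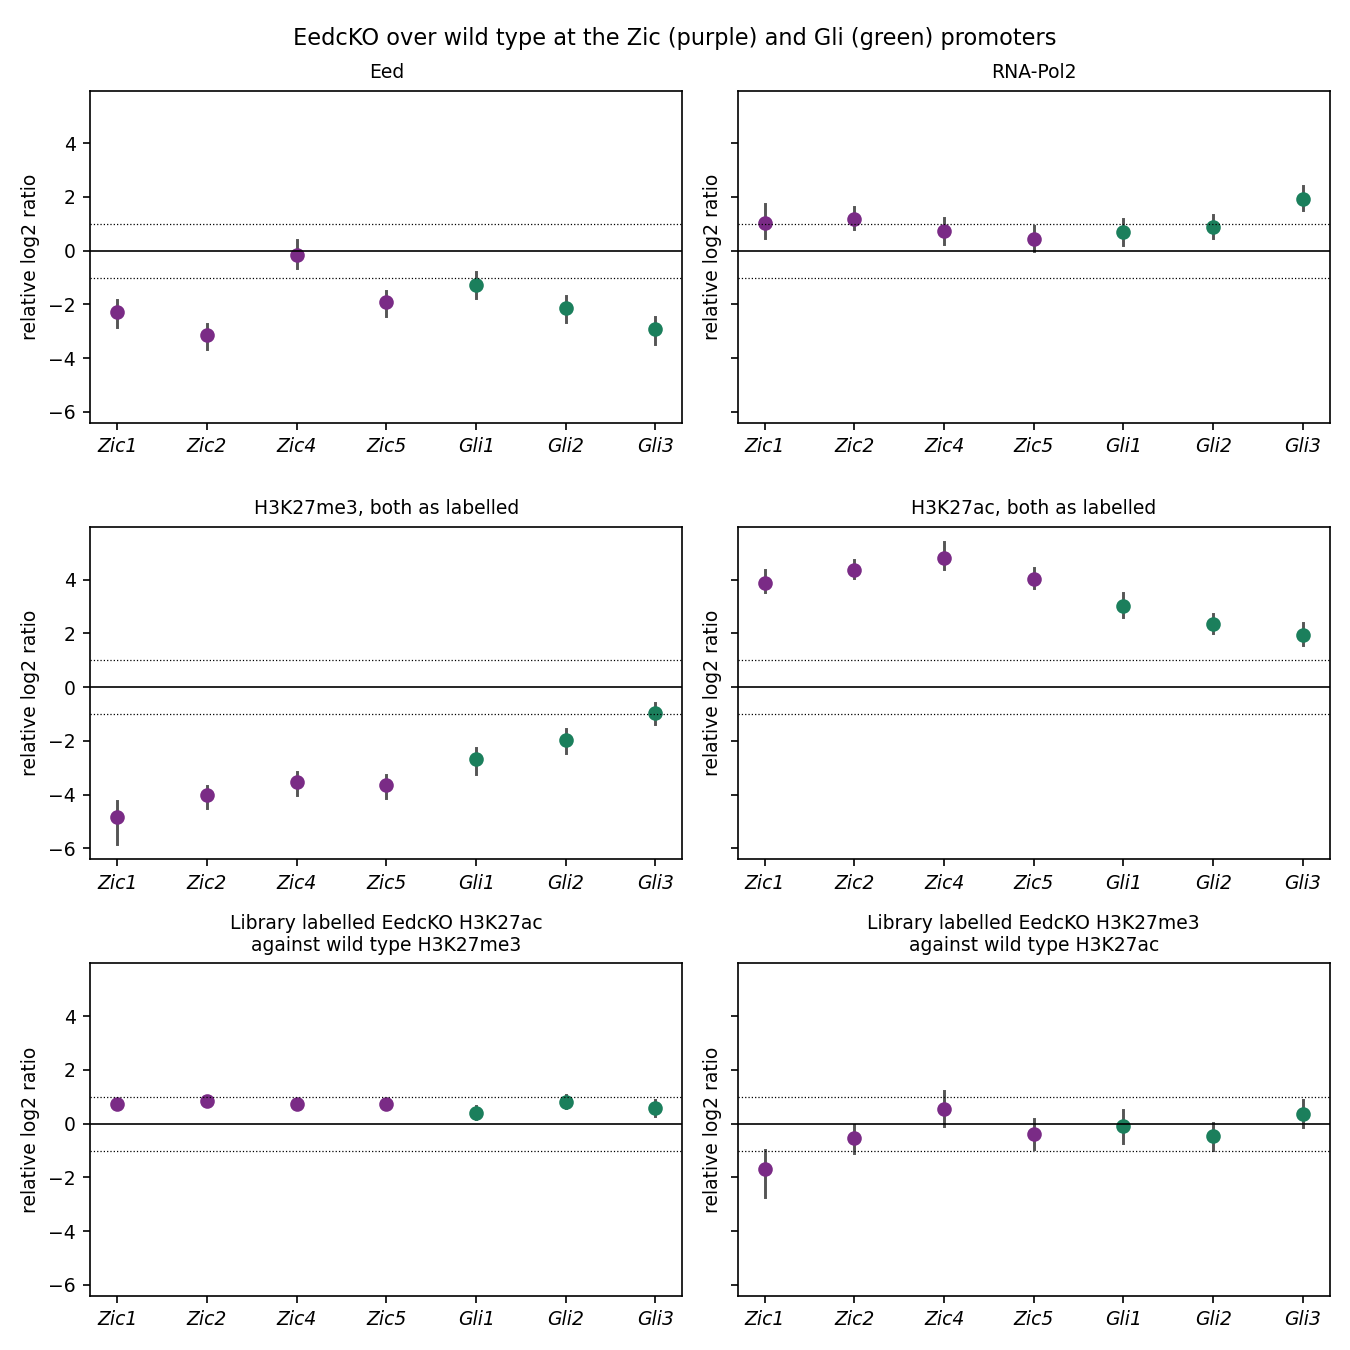
Relative log2 ratio of EedcKO to wild type for each gene, with exact 95% intervals of both counts as bars and the 2-fold rule as dotted lines. Zic genes are purple and Gli genes green, and the lowest panels set each EedcKO histone library against the other wild type mark. Eed is lower at 6 genes, the histone panels by label point apart, and the crossed panels lie within 2-fold except Zic1 at -1.71.

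Summits are the positions, 1 for each peak, in the authors' deposited list of each library, and their scores are the authors'. Wild type Eed had a summit in the window of all 7 members, as in 29.1% of all 55276 symbols, and EedcKO Eed in that of Zic4 alone (9.41%). The wild type Eed summit of Zic4 lay 52 bp from its start site, with a score of 36.5 that ranked 12021 among the 61019 of its list. That of Zic1 lay 118 bp from its start site (score 34.8). The EedcKO Eed summit of Zic4 lay 634 bp upstream, with a score of 3.61 that ranked 16079 among the 39351 of its list. Another in that list, with a higher score of 4.66, lay 1154 bp downstream of the Zic1 start, outside its window. Wild type H3K27me3 had summits in the windows of Zic1, Gli2 and Gli3 (6.4%), 845, 122 and 68 bp from the start, but not in those of Zic2, Zic4 and Zic5, which had more counts. For Zic2 the nearest was 8837 bp downstream (score 133), for Zic5 5322 bp downstream (score 5.38), for Zic4 2552 bp downstream, which is the summit in the Zic1 window, and for Gli1 1241 bp downstream (score 44.7). The lists give no peak widths.

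Wild type H3K27ac had a summit at Gli2 alone (10.3% of symbols), with a score of 7.82, and wild type RNA-Pol2 at none (4.92%). The list labelled EedcKO H3K27ac had summits at Zic2 and Gli3 (5.92%), and the list labelled EedcKO H3K27me3, with 671 summits in all, had none at the members (1.18%) and none within 20 kb of a member's start. The list labelled EedcKO RNA-Pol2 had summits at Zic2, Zic4, Zic5, Gli2 and Gli3 (19.7%), with the highest score, 24.0, at Gli3, 282 bp downstream of the start. Summits of wild type H3K27me3 and of the list labelled EedcKO H3K27ac were found at the same base 13185 bp upstream of Zic1 and 15316 bp downstream of Gli1.

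**Figure D4:**
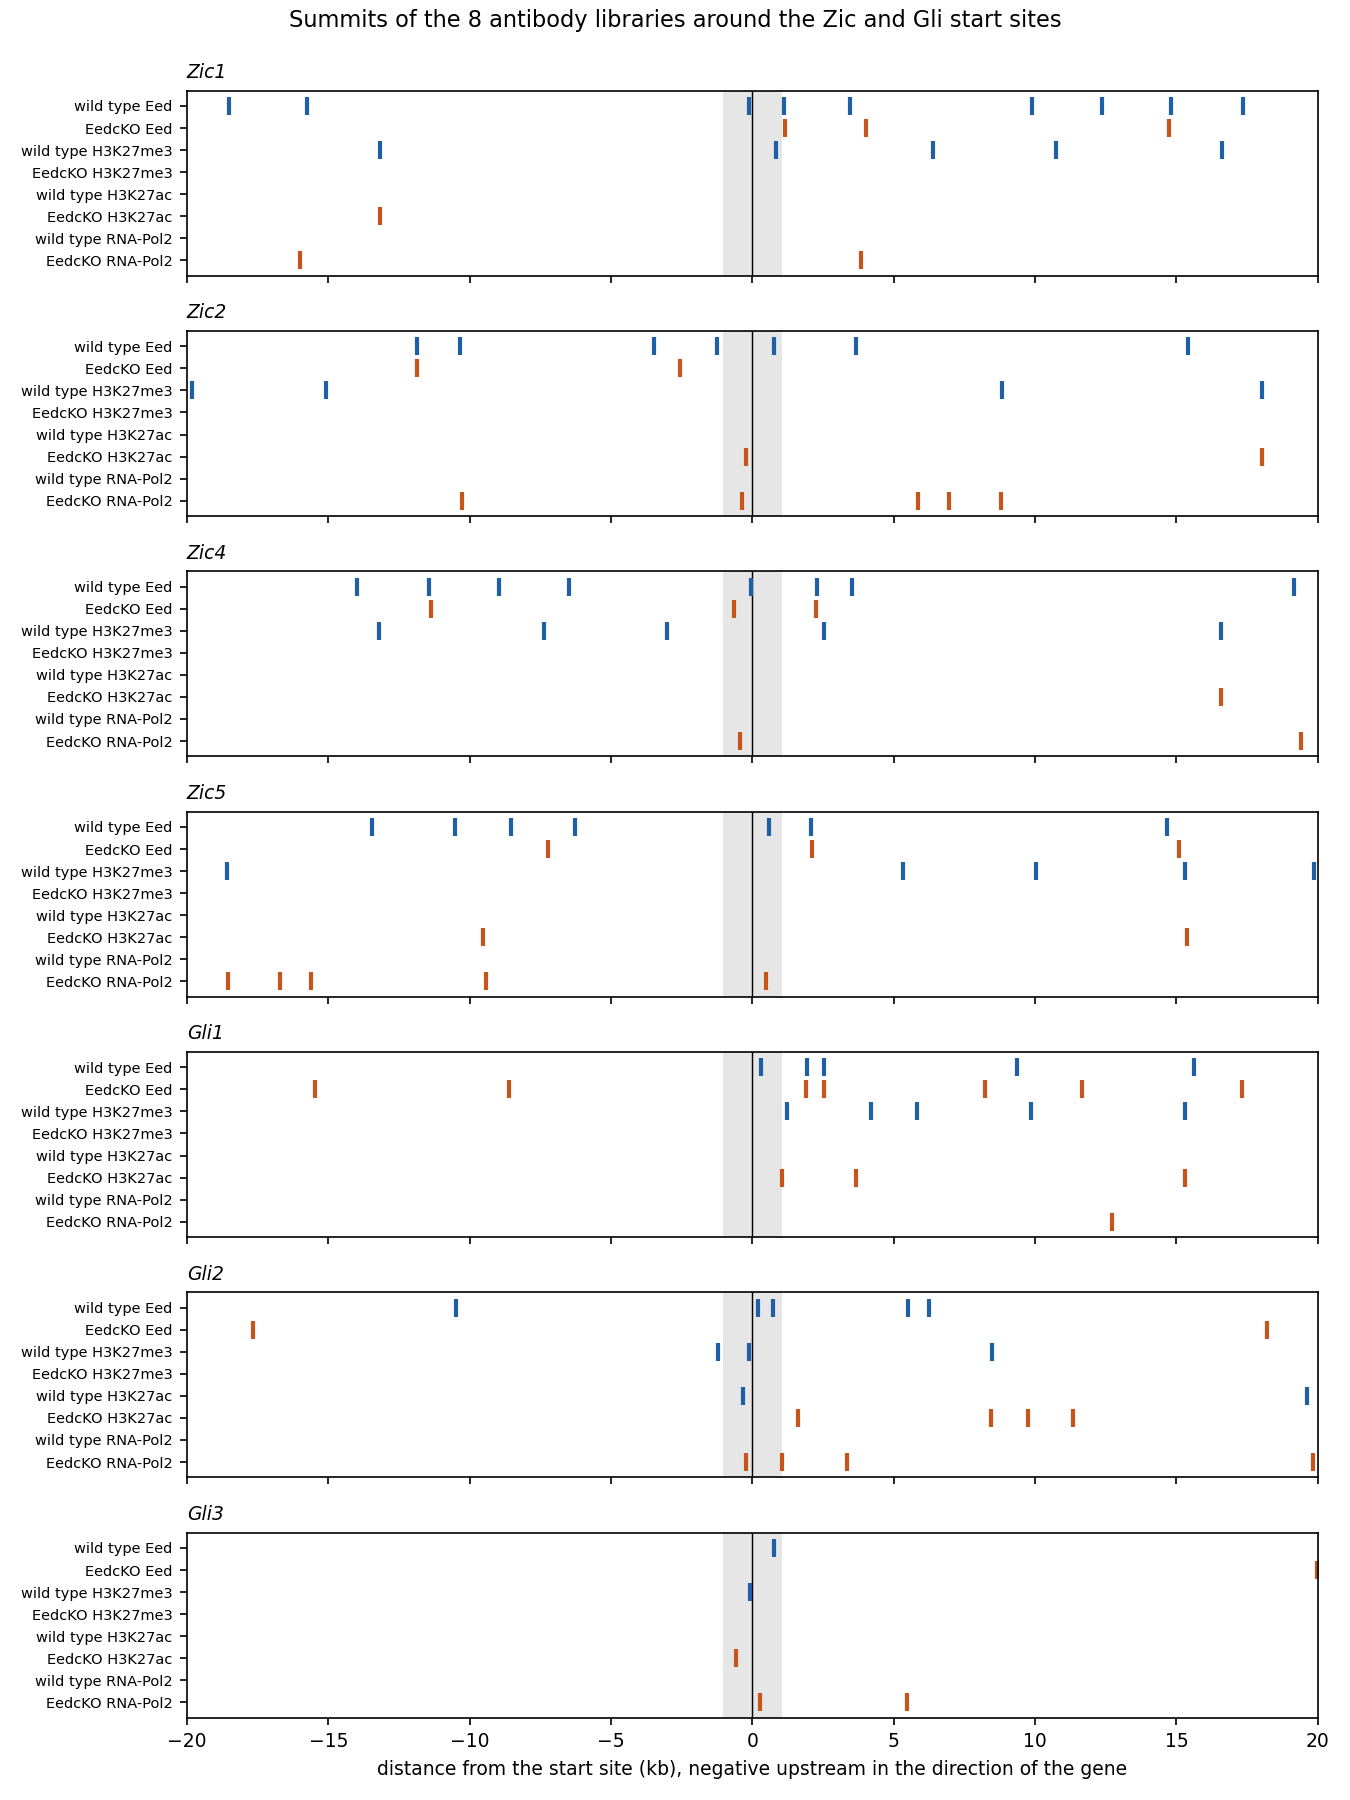
Positions of summits within 20 kb of each start site, in kb along the direction of the gene, for the 8 antibody libraries as labelled (blue wild type, orange EedcKO). The grey band is the 2 kb window. Wild type Eed has a tick in all 7 bands, and the rows of wild type RNA-Pol2 and of the library labelled EedcKO H3K27me3 are empty throughout.

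Windows near the Zic start sites, except that of Gm9399, held high H3K27me3 counts as well. The non-overlapping or barely overlapping windows near Gli2 and Gli3 did not. In wild type, the windows of A730094K22Rik and Gm37477, 14857 and 15592 bp to either side of the Zic1 start, held 456 and 552 H3K27me3 counts. Those of Gm5089, downstream of Zic5, and Gm10837, downstream of Zic2, held 716 and 755. In the library labelled EedcKO H3K27ac the same 4 windows held 657, 902, 989 and 1000 counts. Wild type Eed was uneven over them, with 19 counts at A730094K22Rik, 126 at Gm37477, 123 at Gm5089 and 79 at Gm10837. Gm9399, 19816 bp downstream of the Zic2 start, held 80 H3K27me3 counts and 5 Eed counts in wild type. Gm26831, 4850 bp from the start of Gli2, held 42 H3K27me3 counts, Gm26645 beside Gli3 59, and Inhbe, 12437 bp upstream of Gli1, 64, whereas Gm47200, 9583 bp downstream of Gli1, held 130.

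Among 19789 protein-coding genes, those most like each member over the 12 libraries were found by the root mean square difference of log2 RPKM. Gli1 had the closest, Stc2 (0.21), and Zic1 the least close, Arid3c (0.45). Those nearest to Zic5 were Ppm1j, Tafa3 and Sox21 (0.22 to 0.25). Zic4 was nearest to Dlx5, Phlda2 and Zfp296 (0.32 to 0.33), each with 50 to 70 Eed counts in both genotypes. Nearest to Zic2 were Npr1, Hic1 and Rtn4rl1 (0.39 to 0.42) and to Zic1, after Arid3c, Nrp2 and Bmp2. Ajuba, Cited4 and E2f8 were nearest to Gli2 (0.25 to 0.26), and Ctbp2, Pard6b and Hes5, a Notch target gene, to Gli3 (0.30 to 0.34). Between members the closest were Gli1 and Gli2 (0.43), then Zic2 and Zic5 (0.52), while the neighbours Zic1 and Zic4 differed by 0.84. All libraries enter this measure, so a shared IgG or input level counts as much as a shared mark.

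Other genes of the hedgehog pathway were grouped by role, and differences between the groups were not tested. The 3 ligand genes Shh, Ihh and Dhh had a median of 955 wild type H3K27me3 counts, the 3 genes of release and processing 48, the 7 receptors and co-receptors 135 and the 12 genes of transduction 63. As labelled, H3K27me3 was lower in EedcKO at all 3 ligands, 4 of 7 receptors, 1 of 3 genes of release and processing and 2 of 12 transduction genes, in all 10 of 25 with none higher and a median of -0.57. Over all tested promoters 13.0% were lower and 6.81% higher. By library totals 7 of the 25 were lower and 4 higher, beside 6.45% and 41.0% of all tested promoters. Ihh went from 1712 to 44 counts (-5.18), Shh from 610 to 24 (-4.52), Ptch1, the hedgehog receptor, from 355 to 25 (-3.69) and Dhh from 955 to 93 (-3.29). Gsk3b, a kinase that phosphorylates Gli proteins, had the opposite sign but was within 2-fold (101 to 173, 0.80). In the library labelled EedcKO H3K27ac none was higher and 1 of 25 lower than wild type H3K27me3, with a median of 0.14. Of all tested promoters 2.55% were higher and 4.49% lower there. Against wild type H3K27ac, as labelled, 9 were higher and 5 lower (median 0.27), beside 18.2% and 11.7% of all tested promoters. By library totals 8 were higher and 12 lower, beside 7.9% and 51.6% of all tested promoters. With the library labelled EedcKO H3K27me3 in place of that labelled EedcKO H3K27ac, 1 was higher and 5 lower (median -0.30). The shares over all tested promoters were then 13.0% and 6.18%. As labelled, H3K27ac at Ihh went from 34 to 2443 counts, and at Hhat, which attaches palmitate to the ligands, from 111 to 26.

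Eed was lower in EedcKO at 17 of the 25 hedgehog genes and higher at 2, with a median of -1.69, beside 30.0% and 22.6% of all tested promoters. By library totals 10 were lower and 4 higher, beside 14.7% and 47.2% of all tested promoters. Large changes were at Smo, the signalling receptor (242 to 45 counts, -2.83), and at the co-receptors Cdon (182 to 35, -2.77) and Gas1 (230 to 47, -2.69). Of the ligands 1 of 3 was lower, and their median was 24 Eed counts in wild type beside 25 in input, while their median H3K27me3 count was 955. In RNA-Pol2, 6 of 25 were higher and none lower (median 0.68), beside 12.2% and 7.86% of all tested promoters. By library totals 0 were higher and 1 lower, beside 2.42% and 21.1%. The 6 included Prkaca, the catalytic subunit of protein kinase A (107 to 334, 1.41), and Smo (54 to 152, 1.25), and no ligand.

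Of the related Glis genes, Glis1 and Glis3 had H3K27me3 counts in the range of the Zic genes followed here and Glis2 did not. Wild type H3K27me3 counts were 676 at Glis1 and 528 at Glis3, and as labelled both were lower in EedcKO (Glis1 -3.69, Glis3 -3.65). In the library labelled EedcKO H3K27ac both were within 2-fold of wild type H3K27me3 (Glis1 0.59, Glis3 0.77). Glis2 had 85 H3K27me3 and 109 H3K27ac counts in wild type and 30 in the library labelled EedcKO H3K27ac (-1.59 against wild type H3K27ac, -1.30 against H3K27me3). Its 65 counts in the library labelled EedcKO H3K27me3 were within 2-fold of both wild type marks (-0.35 for H3K27me3, -0.65 for H3K27ac). Its Eed count of 274 in wild type lay between those of Zic2 and Gli3, and it went to 60 in EedcKO (-2.60).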

How the data were processed

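Promoter tables of 12 libraries and summit lists of the 8 antibody libraries were analysed. The submitters' processing notes name Bowtie2 2.4.1 and MACS2 2.2.7.1, besides ChIPseeker 1.22.1, deepTools 3.4.0 and build mm10, without parameters. The deposited promoter tables carry RPKM in their names but hold whole-number counts: their totals of 948955 to 3842779 exceed 500000, which RPKM over 2 kb windows cannot. The deposited summit scores are −log10 values, of p or q (not stated), and were compared within a list only. For 27 symbols damaged by a spreadsheet in the library labelled EedcKO H3K27ac, names came from the other tables.

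RPKM was computed from each count, the window length and the total promoter count (Python 3.11.15, numpy 2.4.6, pandas 2.3.3, scipy 1.17.1, matplotlib 3.10.9). Symbols with several windows entered with their highest. Log2 ratios used a pseudocount of 0.5 RPKM, needed a mean RPKM of 1 or more in the libraries compared, and were set relative to the median tested promoter. This took out 0.88 in Eed, 0.85 in H3K27me3, -1.04 in H3K27ac as labelled and -0.41 in RNA-Pol2. Intervals are exact 95% Clopper-Pearson intervals from both counts, or exact conditional intervals for ratios of ratios. They hold counting error alone, and reads are not independent molecules. The code was tested on simulated data. Members, lists and rules were chosen with earlier results of these data known, and the ratios of ratios after values were seen. Genes named were the 7 members, the 3 most alike to each, the related Glis genes (1 other related gene is not reported here) and, from the hedgehog list, up to 4 with the largest change each way having 100 or more counts in 1 library. Alternatives covered the pseudocount, the minimum, the scaling, control subtraction, the exchanged histone libraries, and summit distance and score.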

Additional observations from a re-analysis of the deposited data

How the results depend on the processing

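With 1 library for each genotype and target, no replicate could be left out. No paired analysis was possible because each group holds 1 library. Of 238 values of single genes under other settings, 174 stayed inside their counting interval, 52 moved beyond it and 12 that had passed 2-fold changed direction. Of these 12, 11 came from exchanging the EedcKO histone libraries. Then the count of members with lower H3K27me3 went from 6 to 0 (Zic1 0.73, Zic2 0.85, Zic4 0.73, Zic5 0.75, Gli1 0.41, Gli2 0.82), and that with higher H3K27ac from 7 to 0 and lower from 0 to 1 (Zic1 -1.71, Zic2 -0.55, Zic5 -0.38, Gli1 -0.10, Gli2 -0.46). The last was Zic1 in RNA-Pol2 with IgG subtracted (-0.65). Among the 52, 4 values within 2-fold changed sign: Gli3 H3K27me3 with the exchanged library (0.59), Zic5 RNA-Pol2 with IgG subtracted (-0.75), and Zic4 Eed by library totals (0.73) and with input subtracted (4.43). Subtracting the control also left 1 member, Gli3, higher in RNA-Pol2 in place of 3, put 1 member, Zic4, higher in Eed, and left 5 in place of 6 lower there (Gli1 -0.84). By library totals with no shift, 1 member was higher in RNA-Pol2. Within 5 kb of a start site, 5 members in place of 1 had an EedcKO Eed summit, 5 in place of 3 a wild type H3K27me3 summit and 4 in place of 2 a summit labelled EedcKO H3K27ac. With a score of at least 10, no member kept an EedcKO Eed or a wild type H3K27ac summit (0 for both), and 2 in place of 5 an RNA-Pol2 summit of EedcKO. The cause of these changes was not tested, other than that the alternatives count other reads or summits. Members with under 30 counts, such as Zic1 in IgG, have the widest intervals.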
